A study of Mus musculus with 12 samples.

Results

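The genes described here encode 10 enzymes and cofactors that write or erase silencing marks on chromatin: the DNA methyltransferases Dnmt1, Dnmt3a and Dnmt3b, the Dnmt1 cofactor Uhrf1, the DNA demethylases Tet1, Tet2 and Tet3, and the Polycomb subunits Ezh1, Ezh2 and Eed. They were chosen by name as known writers and erasers, with earlier results of these data known, and were found by Ensembl identifier among 18278 genes in the count files. All 10 of 10 passed the filter on low counts that left 18176 genes for testing. RNA-seq counts per gene came from 12 libraries of tumourspheres, which are clusters grown from single mammary cancer cells in suspension. Spheres had been kept for 6 days in serum-free medium containing EGF and FGF at 20 ng per mL each, from a seeding density of 10000 cells per mL. There were 4 groups of 3 libraries. LM1 and LM9 are mouse cell lines isolated from lung metastases, after piggyBac transposon mutagenesis of a mammary tumour line that carries the PIK3CA H1047R mutation, so all 4 groups share that mutation and a history of mutagenesis. LM1 Nfib KO and LM9 Nfib KO derive from them by CRISPR-Cas9 targeting of the transcription factor gene Nfib and are pools of single-cell clones. LM1 and LM9 are called parental below. The comparisons ask how the genes that write and erase silencing marks differ between knockout-labelled and parental spheres, and whether the difference is alike in both lines.

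DNA methylation at CpG sites is placed on unmethylated DNA by DNMT3A and DNMT3B and is copied onto the new strand after replication by DNMT1, which UHRF1 brings to hemimethylated sites. The TET dioxygenases oxidise 5-methylcytosine and so start its removal. Polycomb repressive complex 2 (PRC2) methylates histone H3 at lysine 27 through EZH1 or EZH2, with EED binding the finished mark and stimulating the enzyme. EZH2 and UHRF1 are typical of dividing cells, whereas EZH1 is also found in cells that do not divide.

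Library totals ran from 29249075 to 37162594 counts, and 3 counts, the largest number that a count of 0 allows, corresponded to 0.0807 to 0.103 CPM (counts rescaled to a common library total), which covers counting error only. CPM values below are scaled with TMM factors (trimmed mean of M values, a correction for library composition). The targeted gene Nfib had a level of 218 ± 22.6 CPM in LM1 against 235 ± 5.67 CPM in LM1 Nfib KO (SD, n = 3), and of 154 ± 48.8 CPM in LM9 against 240.0 ± 11.2 CPM in LM9 Nfib KO. The guide RNAs were designed to make frameshifts, which need not lower an mRNA, so these levels do not check the labels, and the knockout groups are called by their labels throughout. One library stood apart from its group. Across all genes, the correlation of LM9 replicate 1 was r = 0.998 with each LM1 library and r = 0.972 and r = 0.974 with the other LM9 libraries, while LM9 replicates 2 and 3 correlated at r = 0.997. The labels do not settle whether that library holds the cells it is labelled with, and the LM9 means and SDs below include it. The tests of the 10 genes in LM9 and the counts of the gene lists are therefore also given without it, whereas group means of levels, ratios and shares are not. The 6 knockout-labelled libraries correlated with each other at r = 0.998 to r = 0.999 and with parental libraries at r = 0.778 to r = 0.795. The summed level of 5 luminal epithelial markers (Epcam, Cdh1, Krt8, Krt18 and Krt19) was 737 to 787 CPM in LM1 and 786 to 1327 CPM in LM9, but 0.931 to 1.11 CPM in the knockout-labelled libraries, so those libraries nearly lack the markers of the labelled tissue. The files hold no gene whose third-highest library was under 8 counts. Cdh1, Krt8 and Krt18 held at most 7 counts in any knockout-labelled library, so their fall was fixed by that limit. Epcam and Krt19 fell as well, to 18 to 26 and 11 to 14 counts there. For 3 endothelial markers (Pecam1, Cdh5 and Kdr) the sum was 0.202 to 1.33 CPM in parental and 350.5 to 359 CPM in knockout-labelled libraries, with Cdh5 and Kdr at or under 3 counts in every parental library. Cdh5 and Kdr are thus in the files through knockout-labelled libraries alone, and their rise was fixed in the same way. Pecam1 overlapped between the groups in both lines. It was at 0.314 CPM in LM1 against 0.433 CPM in LM1 Nfib KO, and at 0.880 CPM in LM9 against 0.332 CPM in LM9 Nfib KO. Fibroblast markers (5 genes) summed to 174 to 309 CPM in parental and 1172 to 1265 CPM in knockout-labelled libraries. They did not all move alike. Col1a1 rose from 6.10 to 958 CPM in LM1 and from 3.25 to 899 CPM in LM9, and Pdgfra from 201 to 282 and 173 to 284 CPM. Dcn went the other way, from 90.7 to 11.5 CPM in LM1 and from 38.4 to 12.4 CPM in LM9. Col1a2 and Lum were at or under 3 counts in every parental library, so their rise was fixed by how the files were made. The labels do not settle whether the knockout-labelled libraries hold the cells they are labelled with, which bears on every value of knockout-labelled against parental libraries below. The part of these cell type differences in the results was not tested. In bulk cultures, fewer cells that express a gene and less RNA per cell cannot be told apart. The labels do not say whether replicates were separate cultures, and if they were not, the p-values measure technical spread only.

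In LM1 Nfib KO, 6 of the 10 genes passed the test against LM1 (limma-voom, Benjamini-Hochberg adjusted p under 0.05), against 81.2% of all genes tested. Uhrf1 was the 1 gene that rose, whereas 43.1% of all genes rose. Dnmt3a, Tet1, Tet2, Ezh1 and Eed fell, 5 genes in all, against 38.1% of all genes. Of these, Tet1 is in the files through its counts in parental libraries alone, so its fall was fixed by how the files were made. In LM9 Nfib KO, 5 of 10 passed against LM9, compared with 82.3% of all genes. Dnmt1, Uhrf1 and Tet3 rose (3 of 10, against 44.3% of all genes) and Tet2 and Ezh1 fell (2 of 10, against 38.0%). The shares of members that passed thus lay below the background in both lines. Without LM9 replicate 1 the LM9 count was 9 of 10, with 5 higher and 4 lower, against 88.9% of all genes, and the LM1 count was 8, against 88.6% of all genes, since all libraries share 1 estimate of the spread. With total counts in place of TMM factors the split was 3 higher and 3 lower in LM1 and 6 higher and 1 lower in LM9, while among all genes called the share that was higher went from 53.1% to 59.3% in LM1 and from 53.8% to 63.4% in LM9. The libraries of knockout-labelled and parental groups did not overlap in 8 of 10 genes in LM1, against 89.1% of all genes, and in 5 of 10 in LM9, against 80.5%. For each of those genes the exact two-sided permutation p was 0.1, and no smaller value is possible with 3 libraries per group.

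**Figure D1:**
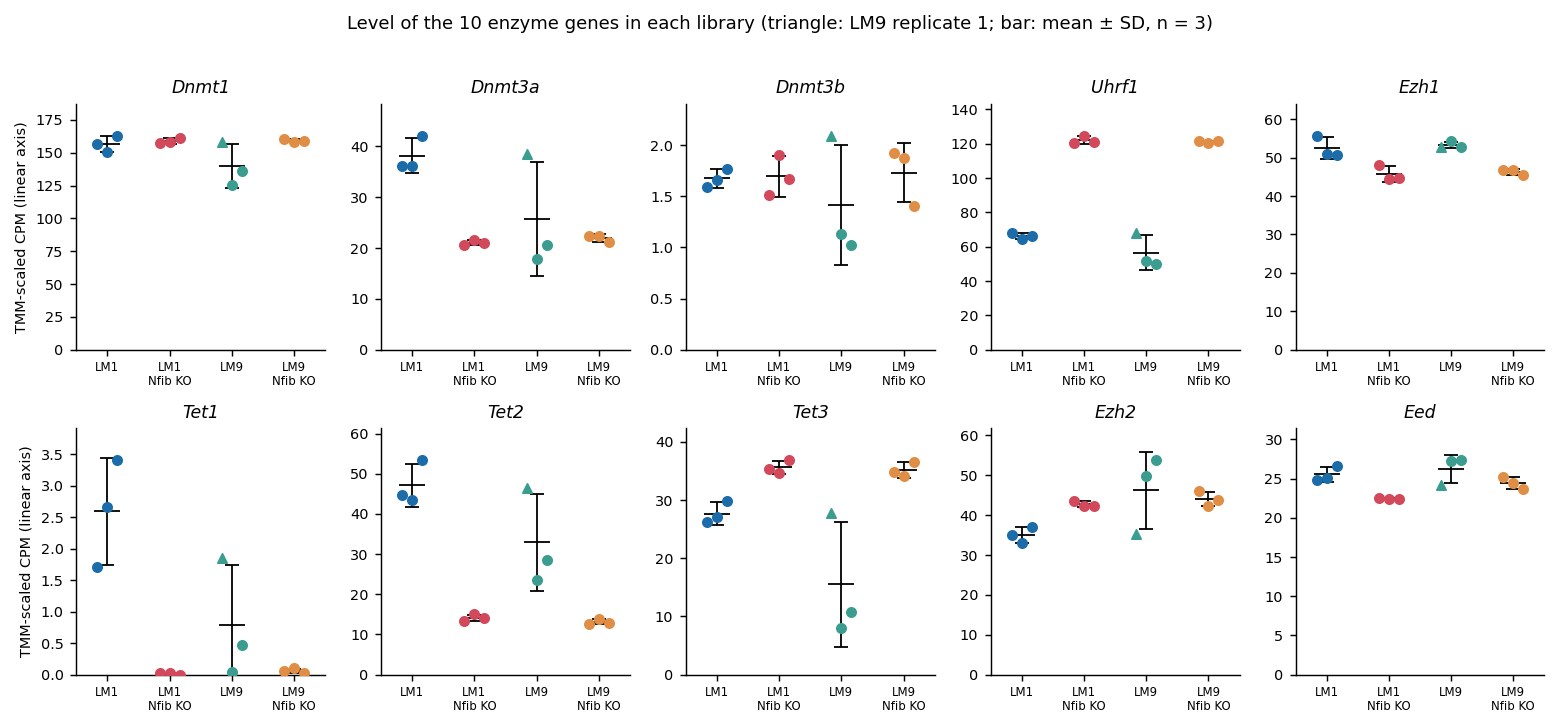
Each panel plots 1 gene, with TMM-scaled CPM on a linear vertical axis that starts at 0 and the 4 groups on the horizontal axis. Points are single libraries, the triangle is LM9 replicate 1, and bars show the mean ± SD (n = 3). Uhrf1 was between 121 and 125 CPM in all knockout-labelled libraries and between 49.9 and 68.2 CPM in all parental ones, and the triangle lies at the level of the LM1 points in most panels.

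Promoter sequences are shown for Uhrf1, Dnmt1 and Ezh2, whose windows hold letters of the E2F type, and, for comparison, for Tet2, which fell in both lines and has none. Each is the RefSeq window from 250 bases before to 50 bases after a transcription start site on GRCm38.p6, the same assembly as mm10, and is written 5′ to 3′ on the strand of the gene. All 10 genes matched, with 15 windows between them, because Dnmt1 and Dnmt3a have 3 start sites and Uhrf1 has 2. Capitals mark letters of the E2F type, searched as TTTCCCGC, TTTCGCGC, TTTGCCGC or TTTGGCGC on both strands; E2F factors act at genes of DNA replication.
Uhrf1 promoter, chr17:56304063-56304362, plus strand: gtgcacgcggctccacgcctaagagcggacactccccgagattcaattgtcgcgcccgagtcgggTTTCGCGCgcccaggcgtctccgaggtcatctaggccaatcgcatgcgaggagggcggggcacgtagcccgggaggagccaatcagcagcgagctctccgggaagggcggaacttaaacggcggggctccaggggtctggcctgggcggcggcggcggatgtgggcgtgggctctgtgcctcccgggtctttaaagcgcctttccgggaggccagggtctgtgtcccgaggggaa
Dnmt1 promoter, chr9:20952574-20952873, minus strand: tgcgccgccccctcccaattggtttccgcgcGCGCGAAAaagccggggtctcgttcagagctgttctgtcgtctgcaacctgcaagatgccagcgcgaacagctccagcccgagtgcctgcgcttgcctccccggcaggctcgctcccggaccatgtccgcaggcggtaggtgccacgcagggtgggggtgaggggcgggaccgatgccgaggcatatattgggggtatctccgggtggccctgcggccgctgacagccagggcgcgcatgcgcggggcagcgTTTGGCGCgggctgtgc
Ezh2 promoter, chr6:47594981-47595280, minus strand: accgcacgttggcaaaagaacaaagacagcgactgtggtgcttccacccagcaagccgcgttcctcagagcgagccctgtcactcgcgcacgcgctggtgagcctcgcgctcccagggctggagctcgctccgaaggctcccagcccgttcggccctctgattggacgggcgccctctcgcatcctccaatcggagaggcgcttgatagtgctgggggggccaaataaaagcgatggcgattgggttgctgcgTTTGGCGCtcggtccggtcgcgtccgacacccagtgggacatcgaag
Tet2 promoter, chr3:133544341-133544640, minus strand: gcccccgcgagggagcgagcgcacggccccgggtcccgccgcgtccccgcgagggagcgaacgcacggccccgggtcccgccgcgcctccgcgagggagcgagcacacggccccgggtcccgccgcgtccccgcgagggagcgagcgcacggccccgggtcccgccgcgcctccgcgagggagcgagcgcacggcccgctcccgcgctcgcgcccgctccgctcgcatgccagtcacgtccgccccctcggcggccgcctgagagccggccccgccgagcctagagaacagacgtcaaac
These letters occurred in 3 of the 15 windows, those of Uhrf1, Dnmt1 and Ezh2 printed above, and in 2.26% of 32851 promoter windows of the same length. Every searched word holds a CG, and the share over all windows was not matched for CpG content, so the shares are not like for like. The match in Uhrf1 began at position -185 from the start site and that in Ezh2 at position 3, while Dnmt1 had 1 match on each side of its start site. The other windows of Uhrf1 and Dnmt1 held none. The Tet2 window had no such letters and held 57 CpG dinucleotides, the most of the 15 windows, whereas Uhrf1 and Dnmt1 held 33 each, Ezh2 held 31, and the median of all windows was 7. The palindrome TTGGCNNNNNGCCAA, the consensus of the NFI family to which NFIB belongs, was in none of the 15 windows and in 0.0365% of all windows. It does not overlap the E2F letters. A match is a description of these letters, not of a bound site.

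Among the writers of DNA methylation, Uhrf1 rose in both lines. Uhrf1 (chr17:56303321-56323486 on mm10, plus strand) was at 68.2, 64.7 and 66.3 CPM in the LM1 libraries and at 121, 125 and 121 CPM in LM1 Nfib KO. It was at 68.1, 51.6 and 49.9 CPM in LM9 against 121 CPM in each LM9 Nfib KO library. All 6 knockout-labelled libraries were thus above all 6 parental ones, and LM9 replicate 1 was at the LM1 level. The log2 fold change was 0.88 (SE 0.09) in LM1, a 1.84-fold rise (limma-voom adjusted p = 3.67e-06), and 1.11 (SE 0.10) in LM9, a 2.16-fold rise (limma-voom adjusted p = 5.51e-07). Without LM9 replicate 1 the LM9 value was 1.26 (SE 0.04). The rise passed the threshold in 22 of 22 fits in each line, which covers every test, scaling, filter and left-out library tried.

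Dnmt1, the maintenance methyltransferase (chr9:20907209-20959888, minus strand), was the most abundant of the 3 methyltransferases. Its level was 156, 151 and 163 CPM in LM1, 157.5, 158 and 161 CPM in LM1 Nfib KO, and 160.3, 159 and 159 CPM in LM9 Nfib KO. The LM9 libraries were at 158, 125 and 136 CPM, so replicate 1 was level with the other groups and replicates 2 and 3 were below them. The log2 fold change was 0.02 (SE 0.07) in LM1, which did not pass (limma-voom adjusted p = 0.806). The LM9 value was 0.19 (SE 0.08), which passed (limma-voom adjusted p = 0.0333), and 0.29 (SE 0.04) without replicate 1, and it passed in 16 of 22 fits. It did not pass in a fit of the LM9 groups alone (limma-voom adjusted p = 0.138), nor at 0.12 without LM9 replicate 2 or 0.18 without LM9 replicate 3 (limma-voom adjusted p = 0.129 and 0.0786), nor without any 1 of the LM9 Nfib KO libraries (limma-voom adjusted p from 0.0579 to 0.0704). With total counts Dnmt1 rose by 0.24 (SE 0.10) in LM1 (limma-voom adjusted p = 0.0471) and by 0.55 (SE 0.10) in LM9 on the log2 scale. Uhrf1 thus moved without an equal change of Dnmt1, and the ratio of their levels per kb of exon within a library, which no scaling factor affects, went from 0.734 ± 0.0261 in LM1 to 1.33 ± 0.0333 in LM1 Nfib KO and from 0.698 ± 0.0577 in LM9 to 1.32 ± 0.00451 in LM9 Nfib KO (SD, n = 3). The ratio was below 1 in 6 of 6 parental libraries and above 1 in 6 of 6 knockout-labelled libraries.

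Dnmt3a (chr12:3806007-3914443, plus strand), a de novo methyltransferase, was at 36.2, 36.1 and 42.1 CPM in LM1 and at 20.6, 21.5 and 21.1 CPM in LM1 Nfib KO. The LM9 libraries split, with 38.5 CPM in replicate 1 and 17.9 and 20.7 CPM in the other two, against 22.4, 22.4 and 21.1 CPM in LM9 Nfib KO. LM9 replicates 2 and 3 therefore already lay within or below the range of the knockout-labelled libraries. In LM1 the log2 fold change was -0.85 (SE 0.20), a fall (limma-voom adjusted p = 0.0023) that passed in 22 of 22 fits. The LM9 value was -0.16 (SE 0.21; limma-voom adjusted p = 0.501), and without replicate 1 it turned to a rise of 0.19 (SE 0.08; limma-voom adjusted p = 0.0353), while with total counts as the only scaling it was 0.21 and did not pass. An antisense transcript, Dnmt3aos, overlaps 133 bases of its exons, and whether the counting used strand was not stated.

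Dnmt3b (chr2:153649450-153687730, plus strand), the other de novo enzyme, was low everywhere, at 1.6, 1.66 and 1.77 CPM in LM1 and 1.51, 1.91 and 1.66 CPM in LM1 Nfib KO. It was at 2.09, 1.13 and 1.02 CPM in LM9 and 1.92, 1.87 and 1.40 CPM in LM9 Nfib KO. The groups overlapped in both lines. Neither the log2 fold change of 0.01 (SE 0.23) in LM1 nor that of 0.32 (SE 0.25) in LM9 passed (limma-voom adjusted p = 0.977 and 0.242), whereas without LM9 replicate 1 the LM9 value of 0.67 (SE 0.23) did (limma-voom adjusted p = 0.0123). Within the summed level per kb of the 3 methyltransferases, Dnmt1 made up 89.0% ± 0.515 in LM1 and 93.1% ± 0.271 in LM1 Nfib KO, Dnmt3a 9.59% ± 0.487 and 5.47% ± 0.108, and Dnmt3b 1.37% ± 0.0487 and 1.43% ± 0.166 (SD, n = 3).

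Among the erasers, Tet2 fell in both lines and the family member with the highest level changed from Tet2 to Tet3. Tet2 (chr3:133463679-133545139, minus strand) was at 44.6, 43.4 and 53.3 CPM in LM1 and at 13.3, 15 and 14 CPM in LM1 Nfib KO. It was at 46.6, 23.6 and 28.6 CPM in LM9 against 12.7, 13.8 and 12.9 CPM in LM9 Nfib KO. No knockout-labelled library reached any parental one, although LM9 replicates 2 and 3 lay between LM1 and the knockout-labelled libraries. The log2 fold change was -1.74 (SE 0.20) in LM1 (limma-voom adjusted p = 7.55e-06) and -1.27 (SE 0.21) in LM9 (limma-voom adjusted p = 1.41e-04), or -0.98 (SE 0.10) without LM9 replicate 1. Both falls passed in 22 of 22 fits.

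Tet3 (chr6:83362373-83459084, minus strand) moved the other way. It was at 26.2, 27.0 and 29.9 CPM in LM1 and at 35.4, 34.7 and 36.8 CPM in LM1 Nfib KO. The LM9 libraries were at 27.8, 8.06 and 10.7 CPM and the LM9 Nfib KO libraries at 34.8, 34.1 and 36.6 CPM. Every knockout-labelled library was above every parental one, and LM9 replicates 2 and 3 were the lowest of all 12. In LM9 the log2 fold change was 1.35 (SE 0.30), a rise that passed in 22 of 22 fits (limma-voom adjusted p = 0.00134), and without replicate 1 it was 1.92 (SE 0.10). In LM1 the value of 0.37 (SE 0.27) did not pass (limma-voom adjusted p = 0.221), but it did in 3 of 22 fits. In the fit without LM9 replicate 1 it stayed at 0.37 and its SE was 0.06 (limma-voom adjusted p = 2.41e-05), in the LM1 groups alone it was 0.37 (SE 0.05; limma-voom adjusted p = 3.35e-05), and with sample quality weights it was 0.32 (SE 0.06; limma-voom adjusted p = 9.2e-05).

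Tet1 (chr10:62804570-62908996, minus strand) was rare. The LM1 libraries held 48, 87 and 94 counts and the LM1 Nfib KO libraries 1, 1 and 0 counts. The group means were 2.59 ± 0.851 CPM in LM1 and, against the floor of 3 counts in each LM1 Nfib KO library, at least 32.7-fold lower there (limma-voom adjusted p = 1.91e-04). The files hold no gene whose third-highest library was under 8 counts, and Tet1 reached 8 counts in parental libraries alone. Its fall was therefore fixed by how the files were made, and nothing is read from that test. In LM9 the counts were 55, 1 and 12, and in LM9 Nfib KO they were 2, 4 and 1. LM9 replicate 2 thus had as few Tet1 counts as the knockout-labelled libraries, and the difference did not pass (limma-voom adjusted p = 0.0583, and 0.157 without replicate 1). It passed in 4 of 20 fits, with edgeR (edgeR adjusted p = 0.00555) and DESeq2 (DESeq2 adjusted p = 4.49e-04) among them, and without LM9 replicate 2 (limma-voom adjusted p = 8.55e-04).

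As shares of the summed level per kb of the 3 Tet genes, Tet2 went from 60.4% ± 1.25 in LM1 to 28.1% ± 1.57 in LM1 Nfib KO and Tet3 from 36.0% ± 1.24 to 71.9% ± 1.59 (SD, n = 3). In LM9 the Tet2 share was 68.9% ± 7.19 and in LM9 Nfib KO 27.0% ± 1.42, and the Tet3 shares were 29.8% ± 6.0 and 72.9% ± 1.5. The ratio of Tet3 to Tet2 per kb was 0.593, 0.628 and 0.567 in LM1, 0.604, 0.345 and 0.378 in LM9, 2.69, 2.34 and 2.66 in LM1 Nfib KO and 2.77, 2.49 and 2.86 in LM9 Nfib KO. It was below 1 in all parental libraries, LM9 replicate 1 included, and above 2 in all knockout-labelled ones. The sum of the 3 Dnmt genes over the sum of the 3 Tet genes was 5.19 ± 0.333 in LM1 and 7.80 ± 0.0684 in LM1 Nfib KO. In LM9 it was 5.31, 9.70 and 8.42, against 8.05 ± 0.232 in LM9 Nfib KO, so writers stood higher against erasers in LM1 Nfib KO than in LM1, whereas in LM9 the groups overlapped.

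**Figure D2:**
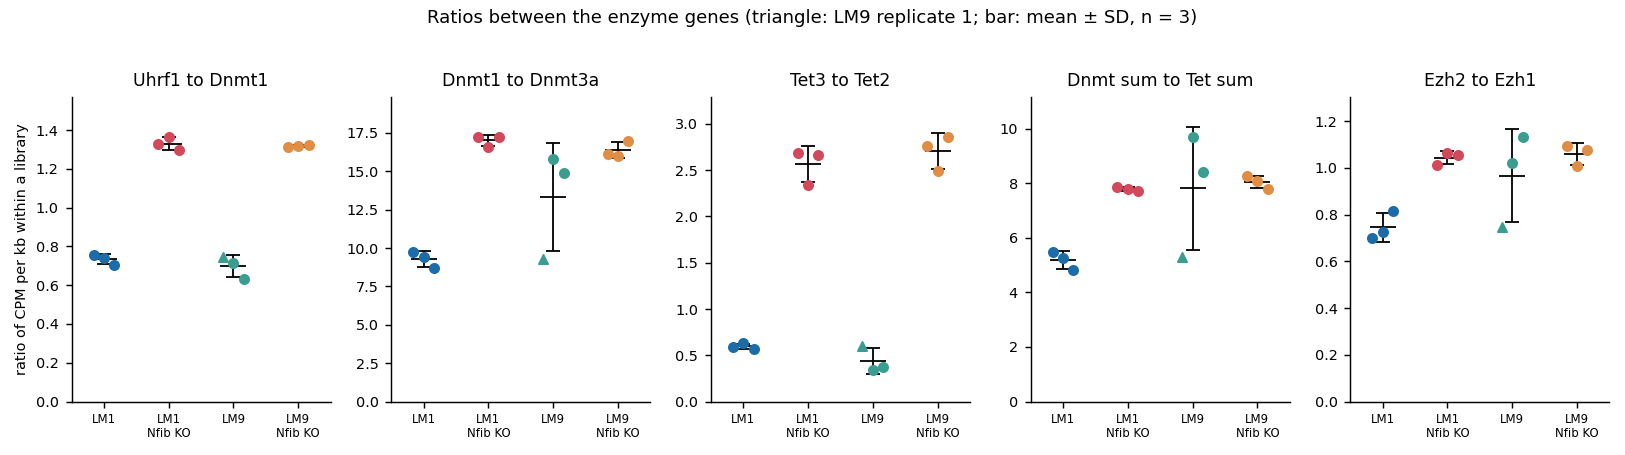
Each panel plots a ratio of 2 levels per kb of exon within a library on a linear axis from 0, with 1 point per library, a triangle for LM9 replicate 1 and bars for the mean ± SD (n = 3). The ratios of Uhrf1 to Dnmt1 and of Tet3 to Tet2 separate all 6 knockout-labelled from all 6 parental libraries, with Tet3 to Tet2 above 2 in the former and below 1 in the latter, while for the other 3 ratios LM9 replicate 1 lies with LM1 and LM9 replicates 2 and 3 lie nearer to the knockout-labelled libraries or past them.

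The Polycomb genes differed less than the Tet genes. Ezh2 (chr6:47530139-47595341, minus strand), the methyltransferase subunit of dividing cells, was at 34.9, 33.1 and 37 CPM in LM1 and at 43.7, 42.4 and 42.3 CPM in LM1 Nfib KO. In LM9 it was at 35.4 CPM in replicate 1 and at 49.8 and 53.7 CPM in the others, against 45.9, 42.3 and 43.9 CPM in LM9 Nfib KO. The 3 LM1 Nfib KO libraries were above all LM1 libraries, whereas the LM9 libraries lay on both sides of LM9 Nfib KO. In LM1 the log2 fold change of 0.29 (SE 0.13) narrowly missed the threshold (limma-voom adjusted p = 0.0515) and passed in 10 of 22 fits. The LM9 value was -0.04 (SE 0.13; limma-voom adjusted p = 0.75), without replicate 1 it was a fall of -0.23 (SE 0.05; limma-voom adjusted p = 7.12e-04), and with total counts it was 0.30 (limma-voom adjusted p = 0.00953). Leaving out replicate 1 thus kept the sign of Ezh2 in LM9 but changed whether it passed, whereas total counts turned the sign.

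Ezh1 (chr11:101191115-101226463, minus strand), its paralogue, was at 55.7, 50.9 and 50.6 CPM in LM1 and at 48.0, 44.4 and 44.8 CPM in LM1 Nfib KO. It was at 52.8, 54.3 and 52.9 CPM in LM9 against 46.8, 46.8 and 45.4 CPM in LM9 Nfib KO. The groups did not overlap in either line, and LM9 replicate 1 did not stand apart for this gene. The log2 fold changes were -0.20 (SE 0.06) in LM1 and -0.20 (SE 0.06) in LM9 (limma-voom adjusted p = 0.00986 and 0.00816), and they passed in 20 and 21 of 22 fits. With total counts in place of TMM factors they were 0.03 and 0.15 and did not pass, and without LM1 replicate 1 the LM1 value was -0.15 and did not pass either (limma-voom adjusted p = 0.0532). Total counts moved the median over all genes from 0.08 to 0.31 in LM1 and from 0.13 to 0.49 in LM9, so that Ezh1 lay below that median under both scalings.

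Eed (chr7:89954654-89980983, minus strand), the subunit shared by PRC2 with either enzyme, was at 24.8, 25.1 and 26.6 CPM in LM1 and at 22.5, 22.4 and 22.4 CPM in LM1 Nfib KO. It was at 24.2, 27.2 and 27.3 CPM in LM9 against 25.2, 24.4 and 23.7 CPM in LM9 Nfib KO. The LM1 groups did not overlap and the LM9 groups did, through replicate 1. The log2 fold change of -0.19 (SE 0.07) in LM1 passed (limma-voom adjusted p = 0.0249) in 15 of 22 fits. It became 0.04 with total counts, and it did not pass with median-ratio factors (limma-voom adjusted p = 0.0541) or without LM1 replicate 2 or 3 or any 1 of the LM1 Nfib KO libraries (limma-voom adjusted p from 0.0538 to 0.0985). The LM9 value of -0.10 (SE 0.07) did not pass (limma-voom adjusted p = 0.197), was -0.16 without replicate 1 (limma-voom adjusted p = 0.0115) and 0.25 with total counts (limma-voom adjusted p = 0.0021). The ratio of Ezh2 to Ezh1 per kb, which is free of scaling, was 0.746 ± 0.0611 in LM1 and 1.04 ± 0.0272 in LM1 Nfib KO, and 0.967 ± 0.199 in LM9 and 1.06 ± 0.0464 in LM9 Nfib KO (SD, n = 3). In the single LM9 libraries it was 0.746, 1.02 and 1.13. Exons of Tet2, Ezh2 and Eed overlap other annotated genes by 43, 174 and 261 bases, which leaves those values slightly uncertain.

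**Figure D3:**
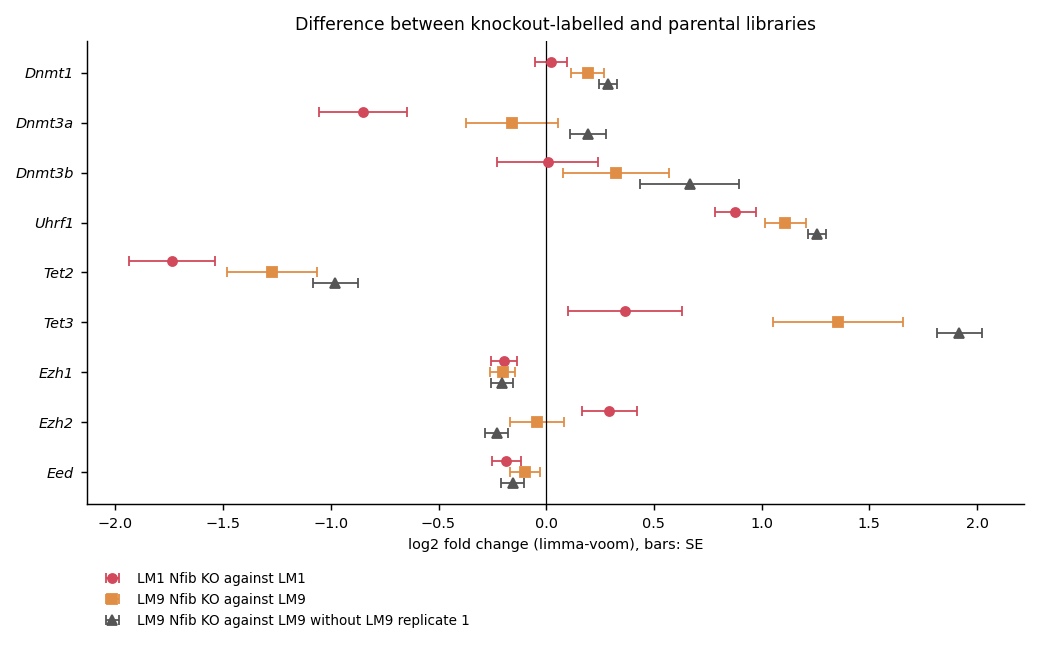
Points are log2 fold changes of knockout-labelled against parental libraries with SE bars, for LM1 (circles), LM9 (squares) and LM9 without replicate 1 (triangles). Tet1 is left out because its counts were at or under the floor in LM1 Nfib KO. Uhrf1 lies to the right and Tet2 to the left of 0 in all 3 fits, Dnmt3a and Ezh2 change side between LM1 and LM9 without replicate 1, and the small falls of Ezh1 and Eed turn positive when total counts replace the TMM factors that are used here.

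Ordered by level per kb of exon, the genes spanned a wide range. In LM1, Dnmt1 was highest at 21.3 ± 0.815 CPM per kb, followed by Uhrf1 at 15.6 ± 0.411, Ezh1 at 7.04 ± 0.384, Eed at 6.67 ± 0.253 and Ezh2 at 5.24 ± 0.290 CPM per kb (SD, n = 3). Tet2 at 2.79 ± 0.320, Dnmt3a at 2.29 ± 0.206, Tet3 at 1.66 ± 0.117, Dnmt3b at 0.328 ± 0.0175 and Tet1 at 0.167 ± 0.0550 CPM per kb came after them. Of the neighbours in this order, Ezh1 and Eed overlapped between libraries. In LM1 Nfib KO, Uhrf1 stood first at 28.6 ± 0.532 CPM per kb, above Dnmt1 at 21.6 ± 0.271, and Tet3 at 2.13 ± 0.0650 stood above Dnmt3a at 1.27 ± 0.0275 and Tet2 at 0.835 ± 0.0501 CPM per kb. The order in LM9 Nfib KO was led by Uhrf1 at 28.4 ± 0.102 and Dnmt1 at 21.6 ± 0.120 CPM per kb, and Ezh2, Eed and Ezh1, between 6.23 and 6.59 CPM per kb, overlapped as neighbours. In LM9, Dnmt1 at 19 ± 2.26 CPM per kb was first and Uhrf1 at 13.3 ± 2.36 second, and the neighbours from Tet2 through Dnmt3a to Tet3 overlapped because of replicate 1.

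The response was next compared between the lines. The difference of the log2 fold changes in LM1 and LM9 passed for 0 of 10 genes in limma-voom and for 0.0% of all genes, with 3 members (Tet1, Tet3 and Dnmt3a) at an unadjusted p under 0.05 and 0 called by edgeR or by DESeq2. Without LM9 replicate 1, 7 of 10 passed, against 57.2% of all genes. In that fit the difference, LM1 minus LM9, was -1.55 (SE 0.12; limma-voom adjusted p = 1.29e-08) for Tet3, which rose more in LM9. It was -1.04 (SE 0.10; limma-voom adjusted p = 2.09e-07) for Dnmt3a, which fell in LM1 and rose in LM9, and 0.53 (SE 0.07; limma-voom adjusted p = 9.59e-06) for Ezh2, which rose in LM1 and fell in LM9. Dnmt3b, Ezh1 and Eed were the 3 genes that did not pass.

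These differences stood in the parental lines rather than in the knockout-labelled groups. Between LM1 Nfib KO and LM9 Nfib KO, 0 of 10 genes passed in limma-voom, with 0 at an unadjusted p under 0.05 and 0 called by edgeR or DESeq2, and 0.0% of all genes passed. Between LM1 and LM9, 0 of 10 passed in limma-voom, with 7 at an unadjusted p under 0.05. Of all genes, 0.0055% passed in limma-voom, which was the single gene Anpep, named after its values were seen. Of the 10, edgeR called 0 and DESeq2 called 4, against 41.1% of all genes with an adjusted p in DESeq2. Without LM9 replicate 1, 8 of 10 passed, against 65.7% of all genes. In that fit, LM1 was higher than LM9 in Tet3 by 1.57 (SE 0.11; limma-voom adjusted p = 1.17e-09), in Dnmt3a by 0.98 (SE 0.08; limma-voom adjusted p = 1.16e-08) and in Tet2 by 0.85 (SE 0.09; limma-voom adjusted p = 3.58e-07) on the log2 scale. Ezh2 was the 1 gene lower in LM1, by -0.57 (SE 0.06; limma-voom adjusted p = 1.4e-07).

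The other genes of these pathways were taken from lists that describe, without a test of the list, how many members passed. Of all genes tested, 43.1% rose and 38.1% fell in LM1 and 44.3% rose and 38.0% fell in LM9, with median log2 fold changes of 0.08 and 0.13. The list genes chosen by their rise or fall in both lines kept their direction and passed in LM9 without replicate 1 as well. Of 9 PRC2 partners, 4 rose and 4 fell in LM1 and 2 rose and 3 fell in LM9, with medians of -0.12 and -0.08. The LM9 counts were 3 and 4 without LM9 replicate 1, and with total counts 4 rose and 2 fell in LM1 and 4 rose and 1 fell in LM9, so the balance in LM9 depended on the scaling. Jarid2, an accessory subunit that helps PRC2 bind chromatin, rose from 18.4 ± 1.78 to 36.1 ± 0.245 CPM in LM1 and from 17.0 ± 2.00 to 36.8 ± 1.45 CPM in LM9 (SD, n = 3). Phf1, another accessory subunit, fell from 76.1 ± 4.37 to 18.8 ± 0.754 CPM and from 62.9 ± 13.6 to 18.0 ± 0.731 CPM. Suz12, the core subunit outside the set of 10 and named after its values were seen, had a log2 fold change of -0.68 in LM1 (limma-voom adjusted p = 0.00109) and -0.08 in LM9 (limma-voom adjusted p = 0.649), which became a rise of 0.16 without LM9 replicate 1 (limma-voom adjusted p = 0.00802).

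Polycomb repressive complex 1 (PRC1), which ubiquitinates histone H2A and can read the PRC2 mark, had more falls than rises. Of its 22 subunits, 4 rose and 13 fell in each line, which is 18.2% and 59.1%, against 43.1% and 38.1% of all genes in LM1 and 44.3% and 38.0% in LM9. The median log2 fold changes were -0.42 in LM1 and -0.29 in LM9, and the LM9 counts were the same without LM9 replicate 1. With total counts 5 rose in each line and 10 fell in LM1 and 8 in LM9. Cbx7, a subunit that binds methylated lysine 27, fell from 58.2 ± 3.38 to 6.43 ± 0.690 CPM in LM1 and from 41.9 ± 14.9 to 6.01 ± 0.350 CPM in LM9. Pcgf6, which belongs to a variant PRC1, rose from 5.81 ± 0.486 to 14 ± 0.359 CPM and from 4.12 ± 1.20 to 13.6 ± 0.512 CPM (SD, n = 3). Of 6 erasers of Polycomb marks, 2 rose and 3 fell in LM1 and 3 rose and 3 fell in LM9, with or without LM9 replicate 1. Kdm6b, a demethylase of the PRC2 mark, fell from 172 ± 17.5 to 25.7 ± 1.05 CPM and from 138 ± 31.7 to 24.0 ± 0.588 CPM. Usp16, which removes ubiquitin from histone H2A, rose from 27.4 ± 2.28 to 56.1 ± 2.09 CPM and from 28.9 ± 1.54 to 57.6 ± 2.07 CPM.

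Genes that work with the DNA methylation enzymes moved in both directions. For comparison, 43.1% of all genes rose and 38.1% fell in LM1, and 44.3% rose and 38.0% fell in LM9. Of 5 partners of the methyltransferases, 3 rose and 1 fell in each line, and 4 rose in LM9 without replicate 1 or with total counts. Dnmt3l, a cofactor of the de novo enzymes without activity of its own, rose from 0.158 ± 0.0880 to 1.87 ± 0.0206 CPM in LM1 and from 0.355 ± 0.250 to 1.92 ± 0.0467 CPM in LM9 (SD, n = 3). Cdca7l, a relative of the remodelling cofactor Cdca7, fell from 30.6 ± 1.32 to 8.45 ± 0.555 CPM and from 30.1 ± 2.34 to 8.08 ± 0.445 CPM. Of 7 methyl-CpG readers, 3 rose and 2 fell in LM1 and 4 rose and 1 fell in LM9, where 5 rose without replicate 1 or with total counts. Zbtb38, a zinc finger protein that binds methylated DNA, rose from 64.6 ± 5.08 to 364 ± 5.20 CPM and from 32.6 ± 25.9 to 368 ± 6.83 CPM, while Uhrf2, the paralogue of Uhrf1, fell from 182 ± 5.43 to 96.1 ± 1.34 CPM and from 209 ± 26.5 to 98.1 ± 2.03 CPM. The fall of Uhrf2 ran opposite to the rise of Uhrf1.

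Of 8 DNA demethylation partners, 1 rose in each line and 6 fell in LM1 and 5 in LM9, with medians of -0.99 and -1.08. The shares that fell were 75% in LM1 and 62.5% in LM9, against 38.1% and 38.0% of all genes, while 43.1% and 44.3% of all genes rose. These shares include Cxxc4, which was at or under 3 counts in every knockout-labelled library. It is in the files through parental libraries alone, so its fall was fixed by how the files were made. In LM9, 3 rose and 5 fell without replicate 1, and 3 rose and 4 fell with total counts, under which 1 rose and 4 fell in LM1. Tdg, the glycosylase that removes the bases that TET enzymes oxidise furthest, rose from 7.63 ± 0.929 to 20.9 ± 1.03 CPM in LM1 and from 5.39 ± 1.61 to 22.2 ± 0.426 CPM in LM9. Gadd45a, a stress-induced gene linked to demethylation, fell from 290.3 ± 8.09 to 76.3 ± 1.92 CPM and from 509 ± 189 to 76.1 ± 1.11 CPM (SD, n = 3). Of 11 genes of histone H3 lysine 9 methylation and heterochromatin protein 1, 3 rose and 6 fell in LM1 and 4 rose and 6 fell in LM9, where 3 rose and 7 fell without replicate 1 and 4 rose and 4 fell with total counts. Among the heterochromatin proteins, Cbx5 rose from 104 ± 6.43 to 241 ± 5.62 CPM and from 63.9 ± 30.6 to 250.2 ± 8.0 CPM, and Cbx1 fell from 114 ± 3.58 to 37.1 ± 1.53 CPM and from 134 ± 17.5 to 37 ± 1.37 CPM.

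Of 7 genes of the methyl donor cycle, which makes S-adenosylmethionine for all these methyltransferases, 4 rose and 2 fell in LM1 and 5 rose and 2 fell in LM9, with or without replicate 1, with medians of 1.27 and 1.19. Mat2b, the regulatory subunit of methionine adenosyltransferase, fell from 64.1 ± 2.55 to 25 ± 0.0451 CPM in LM1 and from 63.7 ± 0.852 to 25.7 ± 1.63 CPM in LM9. Of 20 genes of S phase and mitosis, 14 rose and 5 fell in each line, which is 70% and 25%, against 43.1% and 38.1% of all genes in LM1 and 44.3% and 38.0% in LM9. The medians were 1.45 and 0.93. In LM9, 13 rose and 6 fell without replicate 1, and with total counts 15 rose and 4 fell in LM1 and 14 rose and 2 fell in LM9. Tyms, which makes thymidylate for replication, rose from 4.80 ± 0.556 to 50.5 ± 1.03 CPM and from 6.79 ± 1.73 to 52.8 ± 1.20 CPM. Top2a, a topoisomerase of dividing cells, fell from 1592 ± 82.2 to 396 ± 5.68 CPM and from 1739 ± 160 to 407 ± 11.6 CPM (SD, n = 3), and the other genes of this list that fell in both lines were Mki67, Cdk1, Ccnb1 and Ccna2, named after their values were seen. E2F-type letters were found in the promoters of 6 of 16 genes of this list that had a window. This is a count by gene, so the share of all windows given above is not its background.

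**Figure D4:**
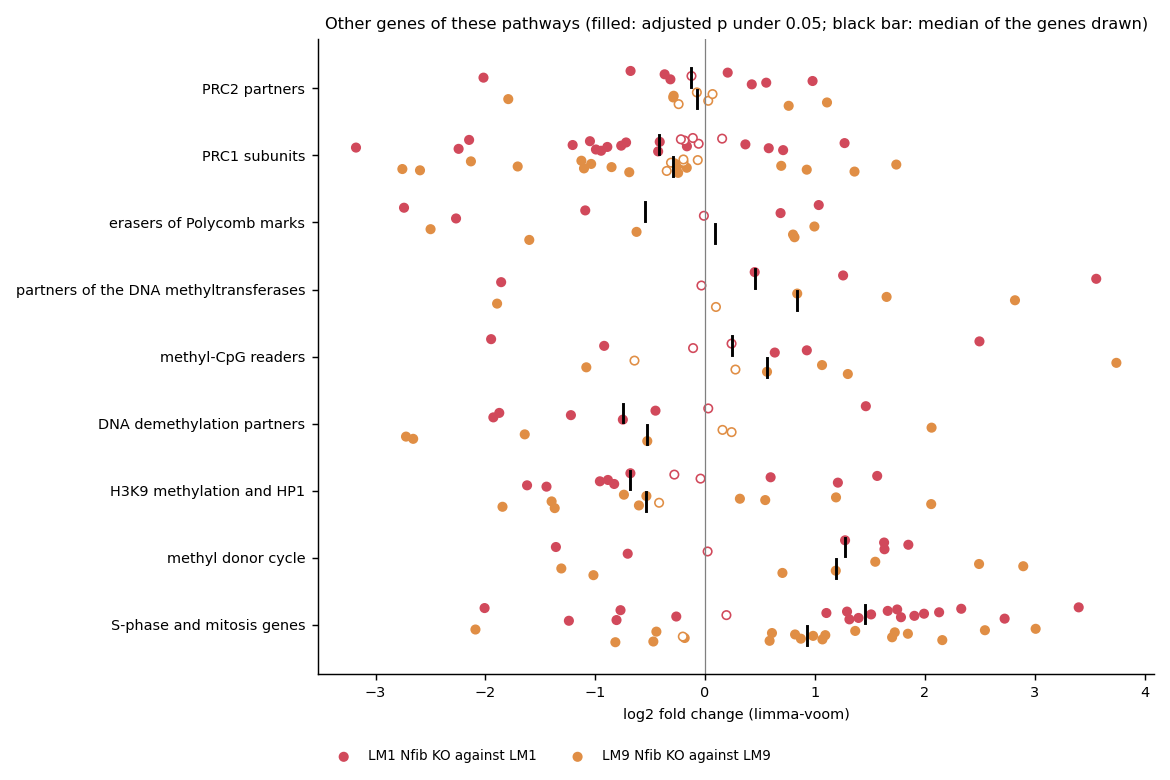
Each point is a listed gene at its log2 fold change in LM1 or LM9, filled where its adjusted p was under 0.05, and black bars are medians of the genes drawn. Cxxc4 is left out because its counts were at or under the floor in knockout-labelled libraries. The points of the S-phase and mitosis list and of the methyl donor cycle lie mostly to the right of 0 and those of the PRC1 subunits mostly to the left.

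Genes that these marks are known to silence in other tissues were few in the files, since the files hold no gene whose third-highest library was under 8 counts. Of 13 germline genes listed, 2 were present. Taf7l was at 0 in all parental libraries and at least 5.83-fold higher in LM1 Nfib KO and 8.09-fold higher in LM9 Nfib KO, against a floor of 3 counts per library, and Brdt fell from 5.39 ± 0.467 to 1.22 ± 0.168 CPM in LM1 and from 5.02 ± 0.532 to 1.32 ± 0.0563 CPM in LM9. Of 26 imprinted genes, 10 were present, of which 2 rose and 6 fell in each line, and in LM9 also without replicate 1. These are 20% and 60%, against 43.1% and 38.1% of all genes in LM1 and 44.3% and 38.0% in LM9. Phlda2, an imprinted gene that limits growth of the placenta, fell from 10.3 ± 1.09 to 0.369 ± 0.123 CPM and from 19.6 ± 7.67 to 0.374 ± 0.0713 CPM, and Impact rose from 37.4 ± 3.37 to 63.2 ± 1.84 CPM and from 21.3 ± 12.9 to 63.9 ± 2.24 CPM (SD, n = 3). Of 15 developmental transcription factors, 8 were present, of which 6 rose in each line and 2 fell in LM1 and 1 in LM9, where 7 rose without replicate 1. Of those that rose, 5 (Pax3, Pax6, Lhx2, Gata6 and Irx5) were at or under 3 counts in every parental library, as were Taf7l and the imprinted gene Plagl1. These genes are in the files through their counts in knockout-labelled libraries alone, so their rise was fixed by how the files were made and nothing is read from these counts. Among them, Irx5 was at 21.6 ± 0.50 CPM in LM1 Nfib KO and at 19.9 ± 0.537 CPM in LM9 Nfib KO. Gata4 fell from 18.3 ± 0.751 to 1.74 ± 0.0854 CPM and from 14.1 ± 3.87 to 1.65 ± 0.206 CPM. The files hold no measurement of DNA methylation or of histone marks, so the marks at these genes were not analysed here.

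For each of the 10 genes, the gene with the most similar profile was sought among 14624 others with a mean of at least 1 CPM, by the root mean square (RMS) distance of centred log2 CPM values over the 12 libraries. Uhrf1 was closest to Ube2o (RMS 0.0375), Dnmt1 to Stard5 (RMS 0.0343), Dnmt3a to Kmt2e (RMS 0.0623) and Dnmt3b to the pseudogene Gm7335 (RMS 0.109). Tet2 was closest to Lyst (RMS 0.0929), Tet3 to Zbtb24 (RMS 0.0806) and Tet1 to Aspm at the largest distance of the 10 (RMS 0.195). Ezh1 was closest to Nudt3 (RMS 0.0489), Ezh2 to Dap (RMS 0.0501) and Eed to the pseudogene Ldha-ps2 (RMS 0.0505). The 12 libraries share the split between parental and knockout-labelled groups and the place of LM9 replicate 1, and reads of pseudogenes can come from their parent genes, so these likenesses are descriptions only.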

How the data were processed

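From stranded poly-A libraries and single-end reads, the authors aligned with STAR to mm10 and counted reads by their 5′ ends over the exon union of each gene with QuasR. Versions, the annotation release and the strand setting are not given in the sources used here. The deposited values were whole-number counts, 1 file per library, with 18278 genes each. Symbols, positions and exon lengths came from GENCODE M21 on GRCm38 (18268 identifiers matched). Groups and replicate numbers came from the sample titles.

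Counts were tested with limma-voom (limma 3.58.1, edgeR 4.0.16, R 4.3.3): filterByExpr (count minimum 10, total minimum 15), TMM factors, 1 mean per group over all 12 libraries, two-sided eBayes tests, Benjamini-Hochberg adjustment over 18176 genes and a threshold of 0.05. Folds against groups at or under 3 counts are lower bounds set at 3 counts per library. Level ratios and family shares were computed per kb of exon and were not tested. Profiles used log2(CPM + 0.5). Alternatives were the edgeR quasi-likelihood test, DESeq2 1.42.0, median-ratio factors, total counts, no filter, a mean of at least 5 CPM, sample quality weights, a replicate block, single pairs of groups, a call that also needs a log2 fold change beyond 1 in size, and each library left out. The code was tested on simulated data.

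The 10 members, the pathway and marker lists and the motifs were chosen with earlier results of these data known. From each pathway list the text names, among genes called with 1 sign in LM1 and LM9, those with the largest rise and fall at a mean of at least 1 CPM, and says where a gene was named otherwise. A gene picked by this rule is left unreported here. Of 5 cell type lists, basal markers (2 of 4 in the files) summed to 0.354 to 19.1 CPM in parental and 6.32 to 7.17 CPM in knockout-labelled libraries, and the 1 leukocyte marker present, Cd68, to 450.2 to 554 and 95.7 to 104 CPM.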

Additional observations from a re-analysis of the deposited data

How the results depend on the processing

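The rise of Uhrf1 and the fall of Tet2 passed in both lines under every alternative that was run, except that Uhrf1 in LM1 fell short of an absolute log2 fold change of 1. The count of members that passed in LM1 was 6, with 5 to 8 when 1 library was left out. In LM9 it was 5, with 4 to 9. The difference between the lines passed for 0 members, with 0 to 7, and the parental lines differed in 0, with 0 to 8. The knockout labels differed in 0 under each alternative. The highest of these counts, 8, 9, 7 and 8 in that order, all came without LM9 replicate 1. Sample quality weights, which weigh a library by its scatter, gave 8 members in LM9 (88.7% of all genes), 7 for the difference (58.1%) and 8 for the parental lines (63.8%). For the parental lines, DESeq2 gave 4 (41.1% of all genes), total counts 4 (28.8%) and the filter at a mean of 5 CPM 4 (39.4%). Requiring an absolute log2 fold change above 1 left 2 in LM1 (55% of all genes) and 3 in LM9 (57.5%). With the replicate block the counts were 6 in LM1 (80.3% of all genes) and 6 in LM9 (81.6%). Samples with the same number did not deviate together (r from -0.16 to 0.09), so the numbers were not taken to pair them.

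Some log2 fold changes changed sign. With total counts, Ezh1 became 0.027 in LM1 and 0.15 in LM9, Eed 0.036 and 0.25, and in LM9 Dnmt3a 0.21 and Ezh2 0.30. With total counts the Ezh1 difference became -0.12, and LM1 minus LM9 became 0.11 for Ezh1 and 0.10 for Eed. With sample quality weights, Dnmt1 in LM1 became -0.001, Dnmt3b in LM1 -0.04 and Dnmt3a in LM9 0.15. With 1 library left out, values ran from -0.076 to 0.093 for Dnmt3b in LM1, from -0.373 to 0.194 for Dnmt3a in LM9 (positive without LM9 replicate 1), from -0.231 to 0.078 for Ezh2 in LM9 and from -0.029 to 0.051 for the Ezh1 difference. Of these, Dnmt3a without LM9 replicate 1 and Ezh2 and Eed in LM9 with total counts passed the threshold. Why these values moved was not tested. A fit of only the groups compared has no value for the difference between lines, which needs all 4 groups. Tet1 and Dnmt3b had few counts.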
